A study of Drosophila melanogaster with 18 samples.

Results

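Ovaries of the LP line were set against ovaries of the HP line, both in reproductive diapause, with 3 libraries in each line and 9037 expressed genes tested of 17611 in the count table. These 6 libraries belong to a series of 18, and all of them come from poly-A RNA of Drosophila melanogaster ovaries given in the labels as stages 1-7. HP (High Plasticity) and LP (Low Plasticity) are a pair of inbred genotypes, each labelled WT, so neither carries a mutation or transgene named in the labels, and each line is a single inbred genotype. The flies of both groups were in diapause at 12 °C; the sources used here do not state their age. The other groups, used below only to place the line difference, were ovaries of reproductive flies at 12 °C and of 28-day-old age controls at 25 °C, again 3 libraries per line. The libraries are labelled as biological replicates, and nothing states whether they came from separate cultures, so p-values measure the spread between these libraries. The comparison asks how ovaries of the 2 genotypes differ while both are in diapause.

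Reproductive diapause is an arrest of egg production under cold and short days, in which egg chambers stop before they take up yolk. Early egg chambers hold germline cells (an oocyte and its nurse cells) inside a layer of somatic follicle cells. The follicle cells later secrete the vitelline membrane, the inner eggshell layer, and after it the chorion, the outer layer. Yolk proteins are made by the fat body and by follicle cells and enter the oocyte by endocytosis. Natural populations of this species vary in how readily they enter diapause, and juvenile hormone, ecdysone, insulin signalling and genes such as couch potato (cpo), timeless (tim) and eyes absent (eya) are known for their part in it. Chromatin marks on histone H3 are the subject of the series.

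Total counts in the 6 diapause libraries ran from 14352846 to 20415905. On the first principal component of these libraries, which held 69.8% of the variance, the lines fell at opposite ends. LP diapause replicate 2 stood apart from the other LP libraries on the second component, which held 11.4%. Its counts of eggshell genes were the highest of the 6, and results that rest on it are given below with and without it. Shares of marker lists are given beside the labelled stages, and the label itself was not tested. Germline and oocyte genes took 1.16% ± 0.0246 of counts in HP and 1.17% ± 0.0136 in LP (SD, n = 3 each). Vitelline membrane genes, whose products follicle cells secrete later, took 0.221% ± 0.0106 in HP and 0.324% ± 0.106 in LP. Chorion and late eggshell genes took at most 0.113%, in LP replicate 2, and 0.0128%, 0.0109% and 0.0129% in the HP libraries. Most counts of that list in the diapause libraries came from dec, active from the vitelline stages on, and ndl. Its share is therefore not a measure of late chorion genes alone. In whole ovaries, more cells of a type and more RNA per cell cannot be told apart.

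The lines differed in many genes, mostly by small amounts. By edgeR's quasi-likelihood test, 2947 of 9037 genes passed an adjusted p of 0.05 (Benjamini-Hochberg over all tested genes), which is 32.6%. Of these, 1570 (17.4% of tested genes) were higher in LP and 1377 (15.2%) were lower. That lead of higher calls turned in other settings: 1469 were higher and 1481 lower with DESeq2's size factors in edgeR, 1523 and 1553 with DESeq2, 1306 and 1307 with no filter, and 1483 and 1530 in the 6 diapause libraries alone. The median absolute log2 fold change of the called genes was 0.43 (quartiles 0.27 and 0.97), and 725 genes (8.02% of tested genes) were called and changed over 2-fold. Over 4-fold were 225 genes higher and 125 lower in LP, and over 32-fold were 44 and 25. The 3 LP and the 3 HP libraries did not overlap in 4192 genes (46.4%). Large differences lay among weakly expressed genes: 22.3% of the 2260 genes with the lowest mean CPM (counts scaled to a common library size) were called and changed over 2-fold, against 7.08%, 1.68% and 0.974% in the following groups of 2259 genes. The share called at any size was more even, at 26.1%, 34.2%, 34.5% and 35.6%. Against a 1.5-fold change as the null hypothesis, 554 genes were called, 327 higher and 227 lower. Levels below are CPM scaled by the TMM method and not divided by gene length, as single libraries in replicate order or as mean ± SD over 3 libraries, and fold changes are log2 values, LP minus HP, with their standard error (SE). Each adjusted p comes from the edgeR test over all 9037 genes.

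**Figure D1:**
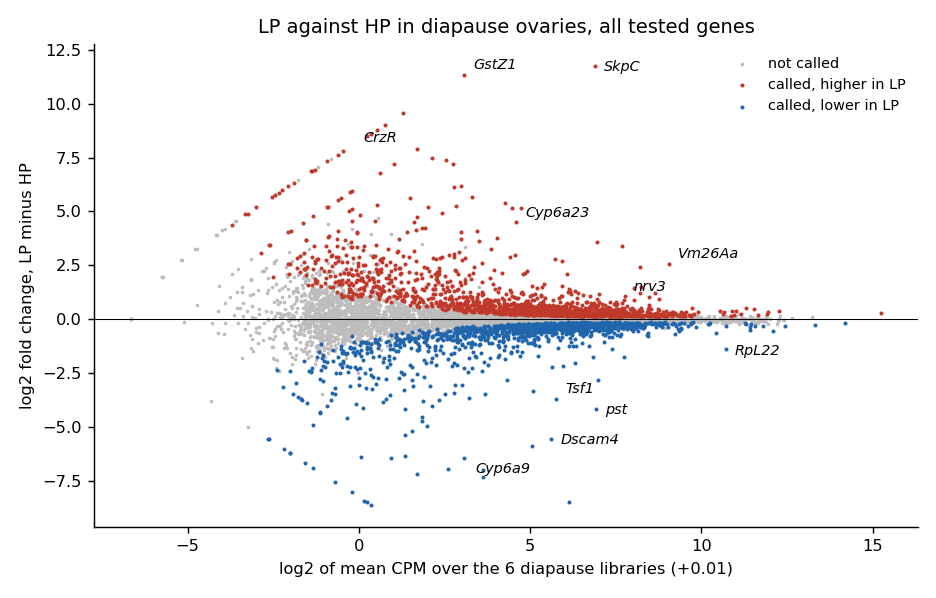
Log2 fold change LP minus HP in diapause (vertical axis) against the log2 mean CPM of the 6 libraries (horizontal axis), 1 point per tested gene. Red points are the 1570 genes called higher in LP, blue points the 1377 called lower and grey points were not called. The largest differences sit at low and middle levels, and RpL22 at −1.39 is the named gene with a difference over 2-fold at the right.

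The plot of difference against level shows SkpC and GstZ1 at the top and RpL22 among the abundant genes. The 10 largest rises and 10 largest falls described next were taken among named protein genes with at least 5 CPM in the higher line and no overlap between the lines, so their lack of overlap is part of how they were chosen.

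SkpC (X, 19816072 to 19816700), a relative of the ubiquitin ligase component Skp1, was nearly absent from HP ovaries and abundant in LP ovaries. The HP libraries held 0.179, 0 and 0 CPM, from 3 reads in all, and the LP libraries 218.3, 252 and 245 CPM. The ratio was 3796 (95% interval 1299 to 18409), an interval that covers counting error only. GstZ1 (3R, 9455517 to 9456546), a zeta-class glutathione S-transferase, had 0 counts in all 3 HP libraries and 14.7, 19.1 and 16.9 CPM in LP, at least 269-fold higher if the 3 HP libraries together are given a floor of 3 counts. CrzR (3L, 12339116 to 12351544), the receptor of the neuropeptide corazonin, had 1 read in HP and 5.29, 9.37 and 4.77 CPM in LP, a ratio of 312 (95% interval 55.6 to 12359). In these 3 genes each LP library was far above each HP library.

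The next rises were in genes of cell contact, sensing and detoxification. The gene mesh, which encodes a protein of smooth septate junctions, went from 0.299, 0.221 and 0.513 CPM in HP to 14.2, 13.6 and 14.2 CPM in LP (log2 fold change 5.28, SE 0.36, adjusted p = 8.6e-10). ItgaPS4, an integrin alpha subunit, went from 1.2, 1.4 and 1.03 to 45.8, 44.6 and 37.8 CPM (log2 fold change 5.16, SE 0.15, adjusted p = 1.1e-15). The LP libraries of both genes lay close together, and their spread was small beside the distance to HP. Ssk (snakeskin, 3L), which works with mesh in the same junctions and was named after its values were seen, went from 2.75, 1.84 and 3.36 to 22.3, 30.3 and 25.7 CPM (3.27, SE 0.20), while Tsp2A, the third protein of those junctions, had 2.75, 1.84 and 1.71 and 2.85, 1.96 and 1.89 CPM and overlapped between the lines. Ir68a, an ionotropic receptor gene, went from 0.326 ± 0.339 to 10.4 ± 0.957 CPM (4.93, SE 0.46). TkR86C, a receptor of tachykinin-like peptides, went from 0.224 ± 0.326 to 6.3 ± 0.945 CPM (4.74, SE 0.72; 7.34 without HP replicate 1, which held most of the HP reads). Cyp6a23, a cytochrome P450 gene, went from 2.33, 2.21 and 1.65 to 43.8, 51.5 and 43.9 CPM (log2 fold change 4.50, SE 0.13, adjusted p = 1.1e-15). The eggshell genes Vm26Ac and Vm32E complete the 10 rises and are described with their family.

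Among the falls, Amt (3R, 15247163 to 15249137), an ammonium transporter gene, had 6.76, 6.18 and 6.15 CPM in HP and 2 reads in all of LP, a ratio of HP over LP of 172 (95% interval 47.2 to 1427). Cyp6a9 (2R, 14879356 to 14881372), a cytochrome P450 gene, fell from 17.7, 16 and 16.3 to 0.104, 0.382 and 0.0611 CPM (log2 fold change −6.45, SE 0.32, adjusted p = 5.8e-12). Dscam4, a member of the Dscam family of immunoglobulin-domain adhesion proteins, fell from 101, 90.3 and 96.1 to 2.7, 1.69 and 1.71 CPM (log2 fold change −5.54, SE 0.16, adjusted p = 2.4e-15). The lowest HP library of these genes was many times the highest LP library. Cyp6a9 and Cyp6a23, which differed in opposite directions, are neighbours in a cluster of related P450 genes on 2R, where reads may be shared between copies. The gene pst (pastrel, 3L, 7357275 to 7360263), known for its part in resistance to RNA viruses, fell from 227, 229.6 and 232 to 11.5, 14.5 and 12.9 CPM (log2 fold change −4.15, SE 0.08, adjusted p = 1.3e-18). Tsf1, the iron carrier transferrin, fell from 106, 104 and 92.3 to 3.37, 13.5 and 6.84 CPM (log2 fold change −3.67, SE 0.39, adjusted p = 1e-05). Within LP the Tsf1 libraries spread more widely than within HP.

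The other falls were in genes at lower levels. The unconventional myosin gene Myo28B1 fell from 8.25 ± 0.629 to 0.498 ± 0.121 CPM (−4.03, SE 0.41), and euc from 6.93 ± 1.41 to 0.269 ± 0.19 CPM (−4.70, SE 0.41). Cyp6a20, a cytochrome P450 gene known from studies of male aggression, fell from 6.83 ± 1.48 to 0.48 ± 0.0949 CPM (−3.80, SE 0.27). Cubn2, related to the endocytic receptor cubilin, fell from 9.48 ± 1.16 to 0.704 ± 0.338 CPM (−3.77, SE 0.35). The histone gene His2B:CG33868 fell by 4.97 on the log2 scale (SE 0.29), and since it is one of many near-identical copies, its count is uncertain.

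**Figure D2:**
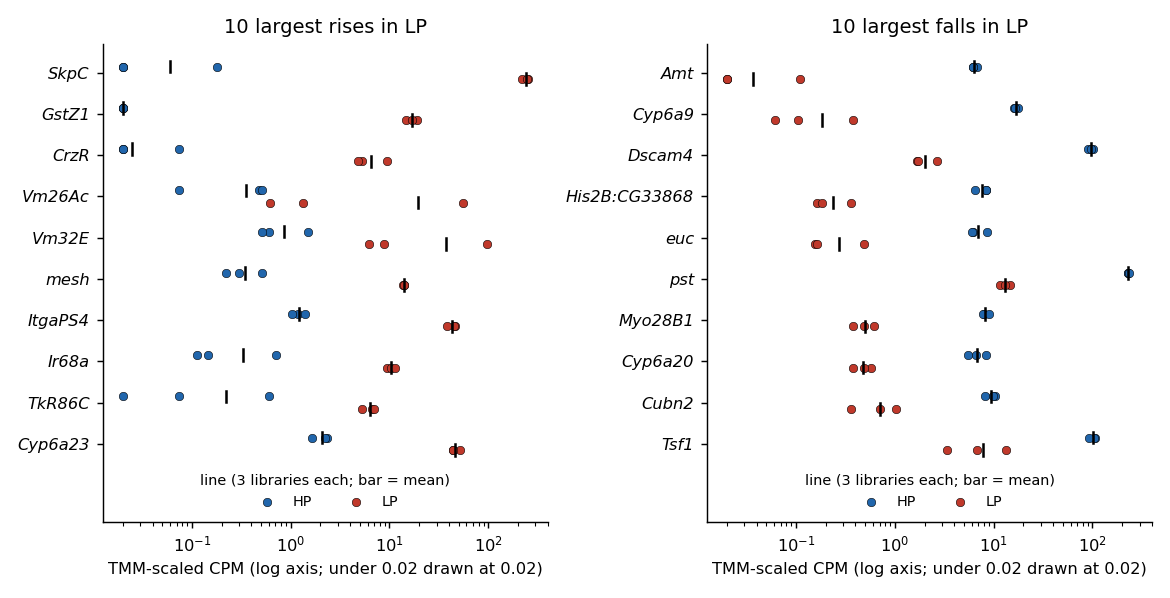
TMM-scaled CPM (log axis, values under 0.02 drawn at 0.02) of the 10 largest rises (left) and 10 largest falls (right) in each of the 6 diapause libraries, with HP in blue, LP in red and a bar at each group's mean. SkpC and GstZ1 are at or near 0 in HP, and the LP libraries of Vm26Ac and Vm32E are spread widely, with LP replicate 2 at 55.8 and 97.8 CPM.

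The plot of these genes by library shows narrow groups for most of them and a wide LP group for the 2 eggshell genes.

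Genes that were all but silent in one line formed a small class. With a mean under 0.2 CPM in one line and at least 5 CPM in the other there were 14 genes, 8 silent in HP and 6 silent in LP. Here silent means only this low level. Besides SkpC, GstZ1 and CrzR, the genes silent in HP were CG12592, CG13532, CG11052, CG17470 and CG43064. CG12592 had 14.7, 13.1 and 12.8 CPM in LP against 0.179, 0.294 and 0.114 in HP, and CG13532 had 10.01, 15.4 and 14.7 against 0.0598, 0 and 0.171. CG11052 had 11.4, 11.8 and 11.6 CPM in LP and 3 reads in HP, a ratio of 185 (95% interval 62.9 to 898), and CG17470 a ratio of 207 (95% interval 56.9 to 1711). Besides Amt and Cyp6a9, the genes silent in LP were the long non-coding RNA gene lncRNA:CR44845, CG14692, CG11825 and CG10962. CG14692 had 24, 21.3 and 28.5 CPM in HP against 0.104, 0.218 and 0.244 in LP, and lncRNA:CR44845, with 33.2% of its exon length overlapping another gene, had 21.1, 28.8 and 23.3 against 0.259, 0.109 and 0.0611. CG5731 (2L, 10207085 to 10209744), which spans part of that locus and was named after its values were seen, had 117, 168 and 139.6 CPM in HP and 0.311, 0.382 and 0.489 in LP (−8.48, SE 0.21), above the limit for this class. All 14 were also called in the same direction between the lines in reproductive ovaries and in age controls. Not all were silent in one line there: CG43064 had 7.18 ± 1.46 CPM in HP and 13.8 ± 3.43 in LP age controls. In 3 of the 14 the line difference was called as different between diapause and age controls. Counts depend on alignment to a reference genome, and whether sequence differences of the lines from that reference changed them was not tested.

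Among genes with high counts, few differed over 2-fold. The 5 called genes past that size with the highest mean CPM were RpL22, Vm26Aa, Ubi-p5E, Vm26Ab and nrv3. RpL22 (X), a ribosomal protein of the large subunit, had 2349, 2472 and 2476 CPM in HP and 1328, 741 and 717 CPM in LP (log2 fold change −1.39, SE 0.37, adjusted p = 0.013). LP replicate 1 lay between the HP libraries and the other LP libraries, and the call was lost without LP replicate 2 or LP replicate 3 (−1.25 to −1.24, adjusted p = 0.052 to 0.055). Exons of RpL22 overlap the non-coding gene lncRNA:CR42491 over 34.3% of their length. Ubi-p5E, a polyubiquitin gene, went from 227, 238 and 238 to 477, 493 and 446 CPM (log2 fold change 1.01, SE 0.05, adjusted p = 7.2e-12). The gene nrv3, a beta subunit of the sodium pump, went from 144, 131 and 144 to 274, 304 and 302 CPM (log2 fold change 1.07, SE 0.09, adjusted p = 3.7e-08). In both, all LP libraries were above all HP libraries, with a narrow spread within each line.

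Gene lists are described by how many tested members were called in each direction, beside 17.4% higher and 15.2% lower over all genes, and by their median, beside 0.01 over all genes. They were chosen with earlier results of these data known. Up to 3 called members with the smallest p are named for each list; further members are named after their values were seen where a sentence says so.

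**Figure D3:**
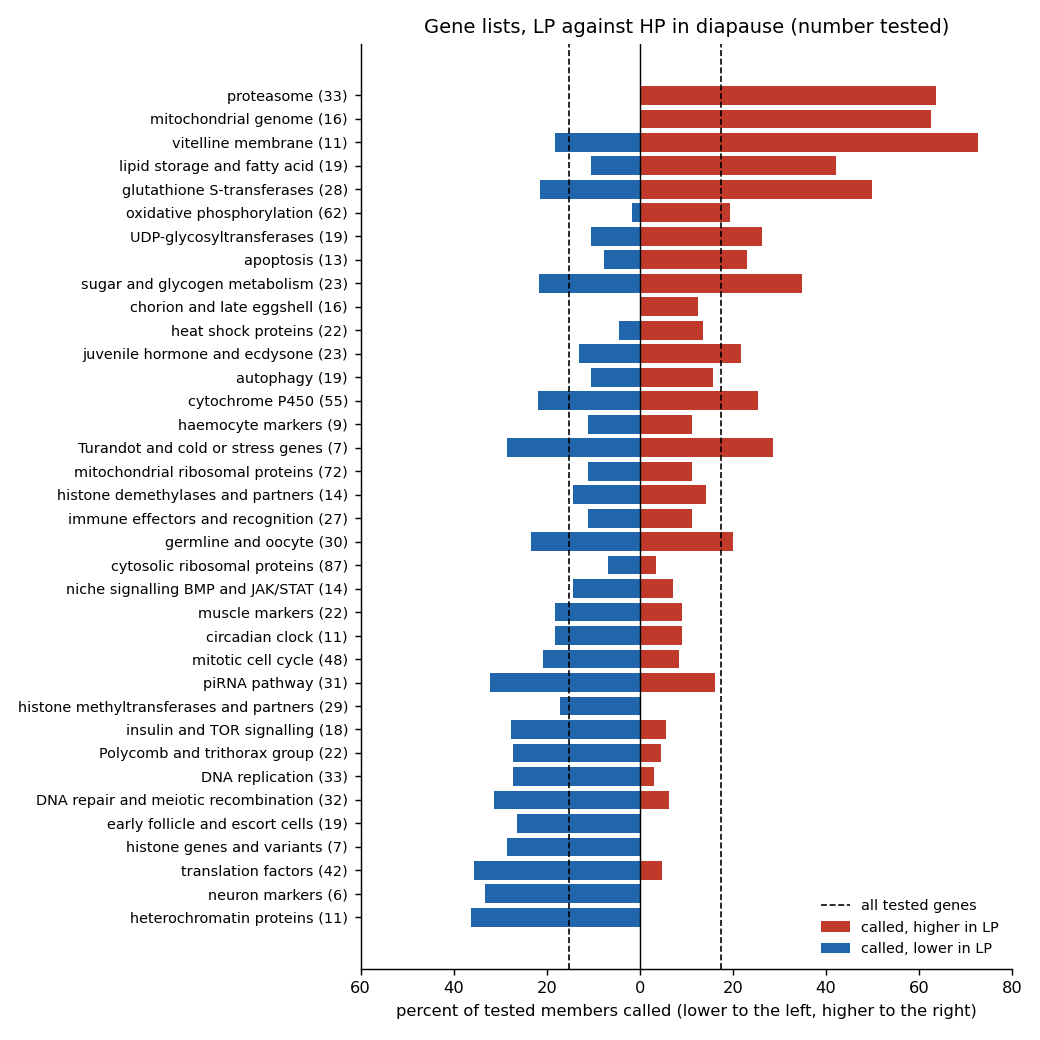
Percent of tested members called higher (red, to the right) and lower (blue, to the left) in LP, for each gene list with 5 or more tested members (number tested in brackets). Dashed lines mark all tested genes, 17.4% higher and 15.2% lower. Proteasome, mitochondrial genome and vitelline membrane genes reach furthest to the right, and translation factors and heterochromatin proteins furthest to the left among lists of over 10 genes.

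Most eggshell genes of the inner layer were higher in LP diapause ovaries. Of the 11 vitelline membrane genes tested, 8 were higher and 2 lower, with a median of 2.08. Vm26Aa, an abundant structural protein of that membrane, had 137, 133 and 187 CPM in HP and 599.7, 1442 and 683 CPM in LP (log2 fold change 2.57, SE 0.36, adjusted p = 0.00014). Vm26Ab had 135, 170.1 and 173 CPM in HP and 437, 583 and 309 in LP (log2 fold change 1.48, SE 0.32, adjusted p = 0.0037). All LP libraries of both genes were above all HP libraries, and LP replicate 2 was the highest of each. Vm32E had 0.598, 0.515 and 1.48 CPM in HP and 6.17, 97.8 and 8.74 in LP (log2 fold change 5.39, SE 1.32, adjusted p = 0.0074), and without LP replicate 2 its log2 fold change was 3.03 (adjusted p = 0.022). Vm26Ac had 0.479, 0.0736 and 0.513 CPM in HP and 0.623, 55.8 and 1.34 in LP (log2 fold change 5.66, SE 1.80, adjusted p = 0.029), and its call was lost without HP replicate 1, HP replicate 2, HP replicate 3 or LP replicate 2 (1.33 to 5.99, adjusted p = 0.081 to 0.56); without LP replicate 2 its log2 fold change was 1.33. The gene tsl (torso-like), which acts in follicle cells at the egg's poles, was higher by 1.10 (SE 0.24), and psd by 2.08 (1.05 without LP replicate 2). Chosen after their values were seen, Vm34Ca (3.57) and Vml (2.72) were also higher. The exceptions were fs(1)M3, which is needed for the vitelline membrane and for terminal patterning, at 767 ± 33.3 CPM in HP and 532 ± 12.9 in LP (−0.53, SE 0.09), and clos (closca), named after its value was seen, at −0.24.

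The list as a whole took 0.227%, 0.209% and 0.228% of counts in the HP libraries and 0.257%, 0.445% and 0.269% in the LP libraries (exact permutation test, two-sided, p = 0.10, the smallest that 3 against 3 allows; 0.20 adjusted over 12 lists). The groups did not overlap, and LP replicate 2 was the highest. Without it the median of the list was 1.23, with 7 members higher and 1 lower. In a fit to the 6 diapause libraries alone 3 members were higher and 2 lower.

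Cp36 and Cp16, structural chorion genes named after their values were seen, had few counts. Cp36 was at 0.767 ± 0.17 CPM in HP and 2.91 ± 3.35 in LP, where LP replicate 2 reached 6.76 CPM, and Cp16 was at 0.188 ± 0.173 and 0.295 ± 0.217 CPM. Neither was called. Of 16 tested, 2 were called, dec and ndl, both higher in LP; the median was 1.52, and 0.58 without LP replicate 2. DESeq2 called 5, all higher. The gene dec (defective chorion), active from the vitelline stages on, had 33.6, 33.2 and 42.3 CPM in HP and 78.8, 956 and 99.8 in LP (log2 fold change 3.38, SE 0.78, adjusted p = 0.0054; 1.29 without LP replicate 2). The eggshell protease gene ndl (nudel) went from 85.8 ± 10.1 to 138 ± 29.8 CPM (0.68, SE 0.13). The share of counts of this list was 0.0128%, 0.0109% and 0.0129% in HP and 0.0192%, 0.113% and 0.0221% in LP (exact permutation test, two-sided, p = 0.10). All LP libraries were above all HP libraries, and LP replicate 2 was several times the other 2. Between the lines in reproductive ovaries, 6 vitelline membrane genes were higher and 3 lower in LP (median 0.89), and 9 chorion list genes were higher and 0 lower. In age controls the vitelline membrane calls were 6 higher and 3 lower (median 1.17) and the chorion list calls 3 higher and 0 lower. Eggshell genes mark follicle cells of later stages. Whether their levels follow the stage of the ovaries was not tested, nor was their part in the other gene differences.

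The 3 yolk protein genes were higher in LP, and the calls of Yp2 and Yp3 did not hold with every library left out. Yp1 (X), which encodes a yolk polypeptide, had 272, 307 and 311 CPM in HP and 476, 716 and 541 CPM in LP (log2 fold change 0.96, SE 0.20, adjusted p = 0.0021). Exons of Yp1 overlap those of another annotated gene over 54.3% of their length. Yp2 had 1836, 2202 and 2126 CPM in HP and 2632, 3459 and 2906 in LP (log2 fold change 0.55, SE 0.17, adjusted p = 0.021), a call lost without HP replicate 1 or LP replicate 2 (0.43 to 0.47, adjusted p = 0.088 to 0.091). Yp3 had 260.2, 263 and 294 CPM in HP and 318, 586 and 400.2 in LP (log2 fold change 0.67, SE 0.23, adjusted p = 0.036), and its call was lost without HP replicate 1, HP replicate 2, HP replicate 3, LP replicate 2 or LP replicate 3 (0.39 to 0.72, adjusted p = 0.052 to 0.17). All LP libraries of the 3 genes were above all HP libraries, with LP replicate 2 the highest. The yolk list, 3 of 4 members called, took 0.589%, 0.58% and 0.614% of counts in HP and 0.693%, 0.832% and 0.756% in LP (exact permutation test, two-sided, p = 0.10). Calls were 1 higher and 0 lower without HP replicate 1 and 1 higher and 0 lower without LP replicate 2.

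In the germline, single regulators differed in both directions. The share of counts of the germline list was 1.19%, 1.14% and 1.16% in HP and 1.16%, 1.18% and 1.16% in LP (exact permutation test, two-sided, p = 1.0), and the groups overlapped. Of 30 germline and oocyte genes, 6 were higher and 7 lower in LP (median −0.03). The gene tut (tumorous testis), whose protein works with bam and bgcn, had 0.658, 1.4 and 0.57 CPM in HP and 4.98, 5.61 and 5.87 CPM in LP (log2 fold change 2.68, SE 0.27, adjusted p = 2.1e-07). The differentiation factor bam (bag of marbles) had 24.2, 23.3 and 21.8 CPM in HP and 39.2, 42.7 and 33 in LP (log2 fold change 0.73, SE 0.11, adjusted p = 4.9e-05). The 2 groups of each gene did not overlap. The helicase gene vas (vasa), a general germline marker, went from 242 ± 6.75 to 302 ± 11.3 CPM (0.32, SE 0.04). The translational repressor nanos went from 106 ± 0.533 to 133 ± 21.8 CPM (0.33, SE 0.10), and its call was lost without LP replicate 2 (0.19, adjusted p = 0.12). The gene exu, needed to localise bicoid RNA, was higher by 0.57 (SE 0.07). Lower in LP was png (pan gu), a kinase of egg activation, at 36.5 ± 0.795 CPM in HP and 21.3 ± 0.614 in LP (−0.78, SE 0.09).

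The piRNA pathway silences transposons in the germline. Of its 31 tested genes 5 were higher and 10 lower in LP, a median of −0.09. AGO3, an Argonaute protein of the amplification cycle, had 88.7, 83.2 and 83 CPM in HP and 56.8, 61.8 and 52.3 in LP (log2 fold change −0.58, SE 0.06, adjusted p = 5.5e-07). The co-chaperone gene shu (shutdown) had 158, 152 and 156 CPM in HP and 115, 106 and 107 in LP (−0.51, SE 0.06). BoYb, a Tudor-domain protein gene, had 24, 23.2 and 18.6 CPM in HP and 35.7, 41.2 and 41.9 in LP (log2 fold change 0.85, SE 0.09, adjusted p = 1.7e-07). The lines did not overlap in any of the 3. Chosen after their values were seen, the nuclease gene zuc (−0.65), krimp (−0.44), cuff (−0.42) and aub (−0.25) were lower and Panx (0.28) and Gasz (0.42) higher.

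Histone methylation is set by enzymes that write it and enzymes that erase it. Of 29 histone methyltransferases and partners 0 were higher and 5 lower in LP, where 17.4% and 15.2% of all genes were. The lower ones named by p were esc, a subunit of Polycomb repressive complex 2 (35 ± 2.97 to 27.1 ± 2.33 CPM, −0.37, SE 0.09), and ash2 and wds, subunits of the complexes that methylate lysine 4 of H3 (−0.28, SE 0.07 and −0.23, SE 0.05). The other 2, named after their values were seen, were jing (−0.32) and Pcl (−0.17). In a fit to the 6 diapause libraries alone 8 were lower and 0 higher, and 10 and 0 with a replicate block. The main catalytic genes did not pass. Set1, which methylates lysine 4, had 108, 103 and 103 CPM in HP and 98.6, 102 and 102 in LP (−0.05, adjusted p = 0.58). E(z), which methylates lysine 27, had 87.7, 81.5 and 84.9 CPM in HP and 87.1, 87.3 and 81.7 in LP (0.01, adjusted p = 0.91). The E(z) libraries of the lines overlapped, and those of Set1 nearly touched. The lysine 36 enzymes Set2 (209 ± 24.1 and 244 ± 24.1 CPM; 0.22, adjusted p = 0.051) and NSD (−0.16, adjusted p = 0.19) and the lysine 4 enzyme trx (−0.24, adjusted p = 0.28) did not pass either.

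Of 14 histone demethylases and partners 2 were higher and 2 lower. Kdm3, a lysine 9 demethylase, had 10.5, 10.5 and 11.7 CPM in HP and 14.7, 17 and 14.4 in LP (log2 fold change 0.49, SE 0.09, adjusted p = 0.00031). The corepressor CoRest, a partner of a lysine 4 demethylase, went from 103 ± 3.16 to 83.8 ± 2.33 CPM (−0.29, SE 0.06). JMJD6, a JmjC protein gene, was at −0.19, a call lost without HP replicate 1, HP replicate 3 or LP replicate 2 (−0.18 to −0.16, adjusted p = 0.057 to 0.078). The demethylase genes Kdm5 (0.03, adjusted p = 0.86), Kdm4A (0.20, adjusted p = 0.073) and Utx (−0.06, adjusted p = 0.41) did not pass. Calls in this list were 1 higher and 1 lower without HP replicate 1 and 1 higher and 1 lower without HP replicate 3.

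Other chromatin proteins were called lower more often than higher. Of 11 heterochromatin proteins 0 were higher and 4 lower (median −0.29). HP4 had 20.8, 20.6 and 20.1 CPM in HP and 11.2, 12.6 and 9.59 in LP (log2 fold change −0.88, SE 0.13, adjusted p = 2.4e-05), and the HP1 relatives HP1c and HP1b were at −0.40 (SE 0.09) and −0.34 (SE 0.08). In HP4 each LP library lay well below each HP library. Of 22 Polycomb and trithorax group genes 1 was higher and 6 were lower. The Polycomb gene ph-d fell from 31.2, 26.9 and 32.7 to 22.9, 16.1 and 20.2 CPM (log2 fold change −0.62, SE 0.12, adjusted p = 0.00048), and the Brahma complex subunits Bap170 and Bap111 were at −0.38 and −0.30 (SE 0.10 and 0.08). Calls in this list were 0 higher and 3 lower without HP replicate 3, 0 higher and 4 lower without LP replicate 2 and 0 higher and 4 lower without LP replicate 3. Of 7 histone genes tested, of 117 in the annotation, His2Av, the H2A variant, was called besides His2B:CG33868, at −0.16, and lost its call without HP replicate 1, HP replicate 3, LP replicate 2 or LP replicate 3 (−0.16 to −0.13, adjusted p = 0.069 to 0.13).

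Genes of DNA replication and repair were lower in LP more often than higher, mostly by small amounts. The share called was 30.3% of replication and 37.5% of repair genes, near the 32.6% of all genes. Of 33 replication genes 1 was higher and 9 were lower (median −0.11). Mcm3, a subunit of the replicative helicase, had 83.6, 81.5 and 83.8 CPM in HP and 60.2, 65.8 and 64 in LP (log2 fold change −0.39, SE 0.07, adjusted p = 0.00012). The clamp loader gene RfC4 and the GINS gene Psf3 were at −0.36 and −0.33 (SE 0.07 and 0.08). Of 32 repair and recombination genes 2 were higher and 10 lower (median −0.11). Blm, the Bloom helicase, had 103, 95.6 and 99.1 CPM in HP and 36, 48.3 and 42.2 in LP (log2 fold change −1.23, SE 0.10, adjusted p = 3e-08), and rad50, of the break-processing complex, was at −0.31 (SE 0.06). Against these, mei-W68, which makes the breaks that start meiotic recombination, had 1.68, 1.91 and 1.77 CPM in HP and 3.48, 4.25 and 5.38 in LP (log2 fold change 1.29, SE 0.23, adjusted p = 0.00023); 35.0% of its exon length overlaps other genes. The lines did not overlap in Blm or mei-W68. In reproductive ovaries replication genes were called 3 higher and 1 lower in LP (median 0.03), and repair and recombination genes 4 higher and 13 lower (median −0.12).

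Of 48 mitotic genes 4 were higher and 10 lower (median −0.04). The condensin gene SMC2 was at −0.43 (SE 0.10) and the cytokinesis gene pbl (pebble) at −0.29 (SE 0.06). The cohesin gene vtd went the other way, from 49.6, 43.9 and 46.2 to 60.5, 73 and 72 CPM (log2 fold change 0.55, SE 0.08, adjusted p = 2.4e-05).

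Proteasome genes were called in a single direction, most by small amounts. Of 33 tested subunit genes 21 were higher in LP and 0 lower, where 17.4% and 15.2% of all genes were, and all 33 log2 fold changes were above 0 under TMM scaling, with a median of 0.17. Prosalpha5, of the catalytic core's outer ring, had 134, 160.3 and 145 CPM in HP and 198, 200.5 and 194 in LP (log2 fold change 0.43, SE 0.07, adjusted p = 6.4e-05). Rpt6, an ATPase of the regulatory particle, had 186, 206 and 179 CPM in HP and 237, 258 and 241 in LP (log2 fold change 0.37, SE 0.06, adjusted p = 3.7e-05), and Prosalpha4 184, 212 and 192 and 247, 249 and 240.1 (0.32, SE 0.06). Each LP library was above each HP library in these 3 genes, by less than 2-fold. Against a 1.5-fold change 1 subunit passed. With 1 library left out 16 to 21 were higher and 0 lower, and without HP replicate 1 the median was 0.13. The 2 members called over 2-fold, Rpt3R and Rpt6R, are paralogues of ATPase subunits at low levels and were named after their values were seen. Rpt3R was higher by 2.18, at 0.436 ± 0.141 and 2.0 ± 0.434 CPM. Rpt6R had 0 counts in HP and 0.0519, 0.218 and 0.306 CPM in LP (adjusted p = 0.015).

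In the fit to all 18 libraries, few ribosomal protein genes were called between the lines in diapause, beside 32.6% of all genes. Of 87 cytosolic ribosomal protein genes 3 were higher and 6 lower (median −0.05). Besides RpL22, RpL23A had 5138, 5285 and 5252 CPM in HP and 3979, 3294 and 3435 in LP (log2 fold change −0.55, SE 0.10, adjusted p = 0.00042; 31.9% of its exon length overlaps other genes), and RpS26 was at −0.29 (SE 0.08). RpL5 was higher by 0.26, and lost its call without HP replicate 1 or HP replicate 3 (0.22 to 0.24, adjusted p = 0.052 to 0.06). In a fit to the 6 diapause libraries alone 7 were higher and 21 lower, beside 1483 higher and 1530 lower of 8350 genes tested. With 1 library left out, 0 to 3 ribosomal protein genes were higher and 2 to 6 lower. Translation factors were called in 40.5%, lower in 15 of 42 with 2 higher (median −0.08), among them the initiation factor eIF5B (764 ± 42.6 to 581 ± 26.8 CPM; −0.40, SE 0.06), eIF3k (−0.34, SE 0.06) and eIF2D (−0.29, SE 0.07). Calls in this list were 1 higher and 9 lower without HP replicate 1, 0 higher and 10 lower without HP replicate 3 and 1 higher and 6 lower without LP replicate 2.

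Most tested transcripts of the mitochondrial genome were called higher in LP. Of 16 tested genes of that genome 10 were higher and 0 lower, with a median of 0.38, and the genome took 4.81%, 5.28% and 4.42% of counts in HP and 6.18%, 6.06% and 5.65% in LP (exact permutation test, two-sided, p = 0.10). The groups did not overlap. Cytochrome b (mt:Cyt-b) had 2452, 2597 and 2315 CPM in HP and 3619, 3476 and 3280.3 in LP (log2 fold change 0.49, SE 0.08, adjusted p = 4.7e-05). The complex I subunits mt:ND1 (179 ± 28.6 to 413 ± 53.6 CPM; 1.21, SE 0.16) and mt:ND3 (0.78, SE 0.11) were higher too. The nuclear genes of oxidative phosphorylation had 12 members higher and 1 lower of 62 (median 0.09), and 7 higher and 1 lower without HP replicate 3. ATPsynbeta, of the ATP synthase, had 1622, 1679.8 and 1601 CPM in HP and 2100.4, 2179 and 2188 in LP (log2 fold change 0.40, SE 0.07, adjusted p = 9.1e-05). The complex I genes ND-B12 and ND-B14 differed in opposite directions, ND-B12 from 46.3, 51.7 and 51.6 to 85.8, 87.8 and 82.1 CPM (log2 fold change 0.77, SE 0.10, adjusted p = 4.9e-06) and ND-B14 from 142, 151 and 147 to 60.9, 64.1 and 62.5 CPM (log2 fold change −1.23, SE 0.09, adjusted p = 7.3e-10). Mitochondrial ribosomal proteins were split evenly, 8 higher and 8 lower of 72, with mRpL52 (0.72) and mRpS2 (0.55) higher and mRpL14 (−0.56) lower.

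Detoxification families had members with large differences in both directions; over all genes 8.02% were called and changed over 2-fold. Of 28 glutathione S-transferases, which couple glutathione to foreign and oxidised molecules, 14 were higher and 6 lower in LP, and 11 were called and changed over 2-fold (median 0.63). GstE6 had 38.6, 43.6 and 38.4 CPM in HP and 93.9, 101 and 96.6 in LP (log2 fold change 1.27, SE 0.08, adjusted p = 2.8e-10). GstE14, an enzyme of ecdysteroid synthesis, had 22.7, 23.5 and 20.7 CPM in HP and 5.55, 4.74 and 5.32 in LP (log2 fold change −2.10, SE 0.16, adjusted p = 2.9e-09). Both were far outside the spread of their libraries. The family lies in clusters of similar genes, so reads may be shared between neighbours. Cytochromes P450 were called in 14 genes higher and 12 lower of 55, 15 of them over 2-fold. Besides Cyp6a23 and Cyp6a9, Cyp12e1 fell from 11.2, 13.8 and 12.2 to 1.14, 1.04 and 1.28 CPM (log2 fold change −3.42, SE 0.20, adjusted p = 6.6e-11). Of 19 UDP-glycosyltransferases 5 were higher and 2 lower. Ugt35A1 went from 4.07, 6.11 and 5.81 to 43.9, 42.9 and 39.5 CPM (log2 fold change 2.99, SE 0.20, adjusted p = 2e-09), Ugt37D1 from 1.65 ± 0.535 to 12 ± 1.06 (2.88, SE 0.20) and Ugt301D1 from 5.65 ± 0.519 to 18.4 ± 3.61 (1.71, SE 0.15).

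Metabolic genes differed in both directions. Of 19 genes of lipid storage and fatty acids 8 were higher and 2 lower (median 0.19). LpR1, a lipoprotein receptor, had 61.1, 55.6 and 58.2 CPM in HP and 84, 80.7 and 93.2 in LP (log2 fold change 0.56, SE 0.07, adjusted p = 5.5e-06). The receptor gene AdipoR was higher by 0.25 (SE 0.05), and the fatty acid transport gene Fatp1 lower, at −0.49 (SE 0.09). Of 23 genes of sugar and glycogen 8 were higher and 5 lower. Gpdh1, glycerol-3-phosphate dehydrogenase, had 107, 128 and 118 CPM in HP and 233, 193 and 191 in LP (log2 fold change 0.80, SE 0.07, adjusted p = 2e-08). Hex-A, the main hexokinase, had 418, 433 and 424 CPM in HP and 272, 241 and 262 in LP (log2 fold change −0.72, SE 0.07, adjusted p = 9e-08). The lines did not overlap in either. Glycogen synthase (Glys) was higher by 0.38 (SE 0.05). Autophagy genes were 3 higher and 2 lower of 19, with Atg7 at 0.56, Atg5 at −0.28 and Atg4b at 0.28; the last lost its call without HP replicate 2, LP replicate 2 or LP replicate 3 (0.23 to 0.24, adjusted p = 0.054 to 0.063). Calls of the autophagy list were 2 higher and 1 lower without HP replicate 1, 2 higher and 1 lower without LP replicate 1 and 2 higher and 1 lower without LP replicate 2. Of 13 apoptosis genes 3 were higher and 1 lower. The Bcl-2 family gene Buffy went from 3.17, 5.0 and 3.99 to 13.5, 12.8 and 12.5 CPM (log2 fold change 1.68, SE 0.16, adjusted p = 5.5e-08), while the caspase gene Dcp-1, which acts in dying nurse cells, went from 113, 113 and 119.7 to 85.4, 72.1 and 79.4 (log2 fold change −0.55, SE 0.06, adjusted p = 1e-06), and the stress-induced gene chrb was at 0.31 (SE 0.06).

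Hormone, clock and insulin genes were called at shares near the 32.6% of all genes, with 34.8% of the juvenile hormone and ecdysone list, 33.3% of the insulin and TOR list and 27.3% of the clock list. Of 23 genes of juvenile hormone and ecdysone 5 were higher and 3 lower. Kr-h1, a target gene of juvenile hormone, had 3.11, 2.65 and 3.19 CPM in HP and 3.48, 10.4 and 10.4 in LP (log2 fold change 1.42, SE 0.46, adjusted p = 0.027). LP replicate 1 was close to the HP libraries, the call was lost without HP replicate 1, HP replicate 2, HP replicate 3, LP replicate 2 or LP replicate 3 (1.19 to 1.47, adjusted p = 0.071 to 0.098), and 78.6% of the exon length overlaps other genes. Met, the juvenile hormone receptor, had 51.4, 48 and 54.8 CPM in HP and 35.1, 38.1 and 41.8 in LP (log2 fold change −0.43, SE 0.08, adjusted p = 0.00023). Hr4, a nuclear receptor of the ecdysone response, had 4.49, 2.8 and 4.84 CPM in HP and 12.2, 11.2 and 7.88 in LP (log2 fold change 1.35, SE 0.24, adjusted p = 0.00023), and spo (spook), an enzyme of ecdysone synthesis, 8.2, 5.96 and 5.87 and 12.2, 13.6 and 13 (0.95, SE 0.22). Hr4 and spo were higher in each LP library than in each HP library, and Met was lower.

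Of 18 insulin and TOR genes 1 was higher and 5 were lower. The transcription factor gene foxo, active when insulin signalling is low, had 157, 149 and 153 CPM in HP and 135, 116 and 119 in LP (log2 fold change −0.31, SE 0.07, adjusted p = 0.003), and the adaptor gene Lnk was at −0.42 (SE 0.06). Calls in this list were 0 higher and 3 lower without HP replicate 1, 0 higher and 3 lower without HP replicate 2, 1 higher and 2 lower without HP replicate 3, 0 higher and 3 lower without LP replicate 2 and 0 higher and 3 lower without LP replicate 3. ImpL2, whose secreted product binds insulin-like peptides, was higher by 0.58, and its call was lost without HP replicate 1, HP replicate 2, LP replicate 2 or LP replicate 3 (0.45 to 0.58, adjusted p = 0.055 to 0.11); 61.9% of its exon length overlaps other genes. Of 11 clock genes 1 was higher and 2 were lower. The clock activator Clk went from 4.73, 5.44 and 4.84 to 6.43, 8.12 and 10.1 CPM (0.71, SE 0.20; lost without LP replicate 3 (0.53, adjusted p = 0.064)), and the clock-controlled genes Pdp1 and cwo were at −0.61 (SE 0.08) and −0.31 (SE 0.08). The gene tim, with alleles known to shift diapause, had 132, 96.2 and 121 CPM in HP and 92.8, 83.2 and 103 in LP and did not pass (−0.33, adjusted p = 0.098). The groups overlapped. The gene cpo had 29.3, 21.9 and 27.3 CPM in HP and 32.8, 33.8 and 32 in LP (log2 fold change 0.33, SE 0.11, adjusted p = 0.029), a call lost without HP replicate 2, HP replicate 3, LP replicate 1, LP replicate 2 or LP replicate 3 (0.21 to 0.35, adjusted p = 0.054 to 0.17). The gene eya had 97.9, 82 and 91.5 CPM in HP and 66.6, 65.4 and 79 in LP (log2 fold change −0.36, SE 0.12, adjusted p = 0.027), a call lost without HP replicate 1, HP replicate 3, LP replicate 1 or LP replicate 2 (−0.36 to −0.31, adjusted p = 0.069 to 0.11). The lines did not overlap in cpo or eya, although both differences were small.

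Niche, immune and stress genes were called in both directions. The share called was 21.4% of the niche list, 22.2% of the immune list and 18.2% of the heat shock list, below the 32.6% of all genes. In the small list of Turandot and cold or stress genes it was 57.1%. Of 14 genes of BMP and JAK/STAT signalling 1 was higher and 2 were lower. Dad, a target and inhibitor of BMP signalling, had 23.6, 23.2 and 24.4 CPM in HP and 36.9, 35.3 and 35.1 in LP (log2 fold change 0.59, SE 0.10, adjusted p = 0.00012). Socs36E, a target and inhibitor of JAK/STAT signalling, was at −0.63, a call lost without LP replicate 2 (−0.50, adjusted p = 0.0503), and the BMP receptor gene put at −0.16, a call lost without HP replicate 1, HP replicate 2, HP replicate 3, LP replicate 2 or LP replicate 3 (−0.18 to −0.15, adjusted p = 0.056 to 0.12). Of 27 immune genes 3 were higher and 3 lower. The antimicrobial peptide gene Dro (drosocin) had 4.55, 4.34 and 6.33 CPM in HP and 0.415, 1.04 and 0.733 in LP (log2 fold change −2.80, SE 0.35, adjusted p = 3.1e-06). The recognition genes PGRP-SB1 and GNBP1 went in opposite directions, at −2.12 (SE 0.34) and 1.27 (SE 0.13). Among 22 heat shock genes 3 were higher and 1 lower. The endoplasmic reticulum chaperone Hsc70-3 was at 0.33 (SE 0.06) and the abundant cytosolic Hsc70-4 at −0.28 (SE 0.08). Hsp70Ba, one of several near-identical genes, had 0 counts in HP and 0.363, 1.69 and 0.183 CPM in LP, at least 12.1-fold higher, and its call was lost without HP replicate 3 or LP replicate 2 (adjusted p = 0.0503 and 0.073). Of 7 Turandot and cold or stress genes 2 were higher and 2 lower. TotA, a secreted stress peptide gene, had 0 counts in HP and 0.208, 5.94 and 1.41 CPM in LP, at least 40.2-fold higher, with LP replicate 2 the highest (adjusted p = 0.0059 without it), and the gene dao was at −0.47 (SE 0.09).

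Markers of other cell types were compared, since an ovary sample can carry sheath muscle, haemocytes, fat body, oviduct and nerve. Muscle markers took 0.252%, 0.223% and 0.235% of counts in HP and 0.202%, 0.20% and 0.235% in LP (exact permutation test, two-sided, p = 0.20), and 2 of 22 were higher and 4 lower. The groups overlapped. The sarcomere gene Mf (myofilin) was at −0.48 (SE 0.11) and Zasp52 at 0.33 (SE 0.08), and the troponin C gene TpnC41C went from 0.239, 0.294 and 0.171 to 2.28, 1.2 and 1.71 CPM (log2 fold change 2.87, SE 0.57, adjusted p = 0.00057). Haemocyte markers took 0.273%, 0.226% and 0.249% of counts in HP and 0.204%, 0.182% and 0.236% in LP (exact permutation test, two-sided, p = 0.20), again with overlap; of 9 tested 1 was higher and 1 lower, and 1 and 3 in a fit to the 6 diapause libraries alone. The matrix gene Ppn (papilin) fell from 149.6, 102 and 132 to 22.8, 29.8 and 40.4 CPM (log2 fold change −2.05, SE 0.23, adjusted p = 1.6e-05) and Glt (glutactin) went from 0.359, 0.147 and 0.171 to 1.19, 5.29 and 1.22 CPM (log2 fold change 3.45, SE 0.82, adjusted p = 0.0035; 2.36 and adjusted p = 0.03 without LP replicate 2). The haemocyte gene Hml was at 3.52 ± 1.29 CPM in HP and 2.19 ± 0.631 in LP. The list also holds the matrix genes Col4a1, vkg, SPARC and Ppn. Its share is therefore not a measure of haemocytes alone.

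Fat body markers were near 0: the list took 0.000159%, 0.000167% and 0.000211% of counts in HP and 0.000255%, 0.00434% and 0.000904% in LP (exact permutation test, two-sided, p = 0.10), and 3 of its 10 genes reached the level needed for testing. The lipoprotein gene apolpp had 1.52 ± 0.198 CPM in HP and 15.6 ± 19.9 in LP and did not pass (adjusted p = 0.052). Apoltp, which works with it, went from 0.0598, 0.0736 and 0.342 to 0.519, 3.38 and 1.28 CPM (3.33, SE 1.09), and its call was lost without HP replicate 1, HP replicate 2 or LP replicate 2 (2.38 to 3.04, adjusted p = 0.085 to 0.15). The fat body gene fit (female-specific independent of transformer) had 0 counts in HP and 0.415, 2.45 and 0.978 CPM in LP, at least 20.4-fold higher (adjusted p = 0.032 without LP replicate 2). LP replicate 2, the library with the most eggshell and yolk transcripts, was the highest in each, and the part of fat body RNA in the yolk values was not tested. Neuron markers took 0.00186% ± 0.000172 in HP and 0.00149% ± 0.0000731 in LP (exact permutation test, two-sided, p = 0.10), with 0 of 6 higher and 2 lower. The calcium channel gene cac was at −0.76 (SE 0.16), and the synapse gene brp had 0.479, 0.221 and 0.228 CPM in HP and 0.0519, 0.109 and 0 in LP, a ratio of HP over LP of 5.64 (95% interval 1.6 to 30.4), with a call lost without HP replicate 1, LP replicate 1 or LP replicate 3 (−2.33 to −1.89, adjusted p = 0.055 to 0.11). Oviduct and sperm store markers took 0.00101%, 0.000822% and 0.000891% in HP and 0.00098%, 0.000596% and 0.000628% in LP (exact permutation test, two-sided, p = 0.30), and none of 3 tested was called.

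Early follicle and escort cell markers, for cell types of the ovary itself, took 0.12% ± 0.00805 in HP and 0.116% ± 0.00729 in LP (exact permutation test, two-sided, p = 0.60). The list also holds signalling genes such as Delta and N, so it is not a measure of these cells alone. Of 19 genes 0 were higher and 5 lower (median 0.02), while 10 of the 19 log2 fold changes were above 0. The transcription factor gene ct (cut) fell from 50.7, 38.2 and 50.9 to 28.9, 21.5 and 28.2 CPM (log2 fold change −0.83, SE 0.18, adjusted p = 0.0023), and the Notch ligand Delta from 119.8, 99.2 and 103 to 70.6, 70.1 and 80.2 CPM (log2 fold change −0.54, SE 0.11, adjusted p = 0.001). The lines did not overlap in either. The gene tj (traffic jam), which marks somatic gonad cells, had 238, 202 and 206 CPM in HP and 174, 234 and 229 in LP and did not pass (−0.02, adjusted p = 0.93). Calls in this list were 0 higher and 2 lower without HP replicate 1, 0 higher and 2 lower without HP replicate 3, 0 higher and 2 lower without LP replicate 1 and 0 higher and 2 lower without LP replicate 2.

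Differences were spread over the genome. The percent of tested genes called was 33.7 on 2L, 34.6 on 2R, 32.4 on 3L, 30.3 on 3R, 32.8 on the X and 23.9 on the small chromosome 4. On the X, 211 genes were higher and 312 lower in LP, while on each other large arm more were higher than lower. Arms were counted with TMM scaling only, and the lead of higher calls over all genes turned in other settings, as given above. There were 15 runs of 3 or more neighbouring tested genes called in the same direction with an absolute log2 fold change of at least 1, holding 52 genes. Without the fold minimum there were 103 runs, and with a fit to the 6 diapause libraries alone 8. The longest, 7 genes higher in LP on 2L (5956489 to 5969761), held the vitelline membrane cluster: Vm26Ab, Vm26Ac, Vm26Aa and psd with CG13998, CG13992 and Ucp4C. CG13992 had 44, 46.1 and 44.5 CPM in HP and 104, 119 and 117 in LP (log2 fold change 1.33, SE 0.10, adjusted p = 3.5e-09), and Ucp4C, a mitochondrial uncoupling protein gene, 0.359, 0.809 and 0.399 and 2.39, 2.34 and 2.26 CPM (2.18, SE 0.50). CG13998 was at 2.04 and lost its call without LP replicate 2 (1.57, adjusted p = 0.051).

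The second run, on 2R (10420414 to 10427915), was lower in LP and held CG11825, CG33474, the peroxiredoxin gene Prx6b and CG12896. CG11825 had 10.5, 12.5 and 13.2 CPM in HP and 0.208, 0 and 0.0611 in LP, and Prx6b 7.66, 11.6 and 11.9 and 0.934, 0.60 and 1.28 (log2 fold change −3.47, SE 0.26, adjusted p = 2e-09). CG12896 was at −3.07 (SE 0.34), and CG33474 at −1.18 with a call lost without HP replicate 1, HP replicate 2, HP replicate 3, LP replicate 1 or LP replicate 3 (−1.24 to −0.88, adjusted p = 0.052 to 0.13). A run on 2R (23264269 to 23347641) was higher in LP and held CG12782, CG13540, ord and CG3502, among which CG13540 had 0.239, 0.294 and 0.114 CPM in HP and 8.87, 9.16 and 5.62 in LP (log2 fold change 5.19, SE 0.54, adjusted p = 3.6e-07). The gene ord (orientation disruptor), needed for sister chromatid cohesion in meiosis, had 0.897, 0.368 and 0.684 CPM in HP and 2.75, 4.14 and 2.63 in LP (log2 fold change 2.25, SE 0.47, adjusted p = 0.001). A run on 3R (12370507 to 12376572) held the glutathione S-transferase genes GstD2, GstD3 and GstD5 with lncRNA:CR46015. GstD2 went from 3.11, 6.47 and 5.98 to 26.5, 21.6 and 28.6 CPM (log2 fold change 2.31, SE 0.35, adjusted p = 0.00014) and GstD3 from 6.5 ± 0.813 to 13.1 ± 0.567 (1.01, SE 0.16). The last, on 2R (19633195 to 19637400), held lncRNA:CR44503, CG42753 and CG18367 at low levels; lncRNA:CR44503 had 1 read in HP and 1.25, 3.65 and 4.16 CPM in LP, a ratio of 141 (95% interval 24.9 to 5602). CG18367 was at 1.84 and lost its call without HP replicate 1, HP replicate 3 or LP replicate 3 (1.53 to 1.69, adjusted p = 0.084 to 0.12).

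The same line difference was measured in reproductive ovaries at 12 °C, in 6 other libraries. There 3174 of 9037 genes (35.1%) were called, 1666 higher (18.4%) and 1508 lower (16.7%), and 763 (8.44%) were called and changed over 2-fold. Of the 2947 genes called in diapause, 2245 (76.2%) were called in the same direction in reproductive ovaries and 2 in the opposite direction, and 98.9% had the same sign. Over all tested genes, 34.5% were called there in the direction of their diapause value, and 82.8% had the same sign. Across the 9037 genes, which are not independent replicates, the log2 fold changes in the 2 states had a Pearson correlation of 0.802. Their Spearman (rank) correlation was 0.797. SkpC was at 0.0323 ± 0.0559 CPM in HP and 229 ± 30.2 in LP reproductive ovaries, pst at 204 ± 10.3 and 9.33 ± 0.996, and Dscam4 at 82.7 ± 5.4 and 0.921 ± 0.328. The lines did not overlap in any of the 3. A test of the difference between the 2 line differences called 0 genes by edgeR, with 366 at an unadjusted p under 0.05. DESeq2 called 6 (0.0665%), with the LP minus HP value higher in diapause in 1 of them and lower in 5. No gene was therefore shown by edgeR to differ between the lines in diapause in another way than in reproductive ovaries. Chorion and late eggshell genes took 0.0483%, 0.0418% and 0.109% of counts in HP and 0.273%, 0.237% and 0.356% in LP reproductive libraries. In each line these shares were above those of all its diapause libraries. Proteasome genes were called 25 higher and 0 lower there (median 0.17).

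The age controls at 25 °C gave another picture. There 3782 genes (41.9%) were called between the lines, 1801 higher (19.9%) and 1981 lower (21.9%), with 1029 (11.4%) over 2-fold. Of the genes called in diapause, 1582 (53.7%) were called in the same direction and 159 in the opposite one, and 81.7% had the same sign. Over all tested genes, 32.5% were called there in the direction of their diapause value, and 67.2% had the same sign. The Pearson correlation across genes was 0.614 and the Spearman (rank) correlation 0.459. The test of the difference between the diapause and the age-control line difference called 1661 genes (18.4%), 1005 higher (11.1%) and 656 lower (7.26%), with 516 (5.71%) over 2-fold; with library totals in place of TMM factors it called 1709, of which 42.7% were higher instead of 60.5%, and the median of all genes moved from 0.03 to −0.05. Of the 1661 genes, 812 were called between the lines in age controls and not in diapause, 390 in diapause and not in age controls, and 159 in opposite directions. State, temperature and age differ together between these groups and cannot be told apart.

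**Figure D4:**
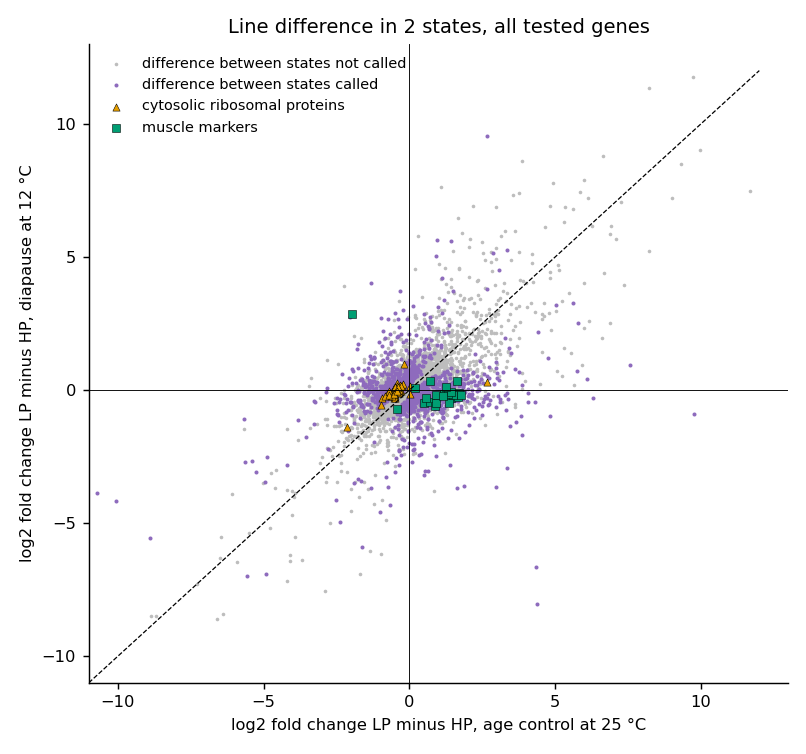
Log2 fold change LP minus HP in diapause at 12 °C (vertical axis) against the same in age controls at 25 °C (horizontal axis), 1 point per tested gene, with the dashed line marking equal differences. Purple points are the 1661 genes whose line difference differed between the states, triangles are cytosolic ribosomal protein genes and squares muscle markers, which lie away from the dashed line with medians of −0.50 and 1.17 in age controls.

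In the plot of the line difference in diapause against age controls, ribosomal protein genes form the clearest displaced group. In diapause 3 were called higher and 6 lower between the lines, and more in a fit to the 6 diapause libraries alone. Most were lower in LP age controls, where 83 of 87 were lower and 1 higher. The difference between the states was called in 67 of them, all toward a higher value in diapause (median 0.45; 63 and 0.36 with library totals). Translation factors were called in 16 toward higher and 2 toward lower. Muscle markers went the other way: 20 of 22 were higher and 1 lower in LP age controls (median 1.17), and the difference was called in 19 toward lower and 1 toward higher in diapause. The exception was TpnC41C, at 2.87 in diapause and −1.97 in age controls. Early follicle and escort markers were called in 6, all toward higher in diapause. Proteasome genes were called higher in LP in both states, with 21 called in diapause and 27 called in age controls and 1 called as different (6 with library totals).

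**Figure D5:**
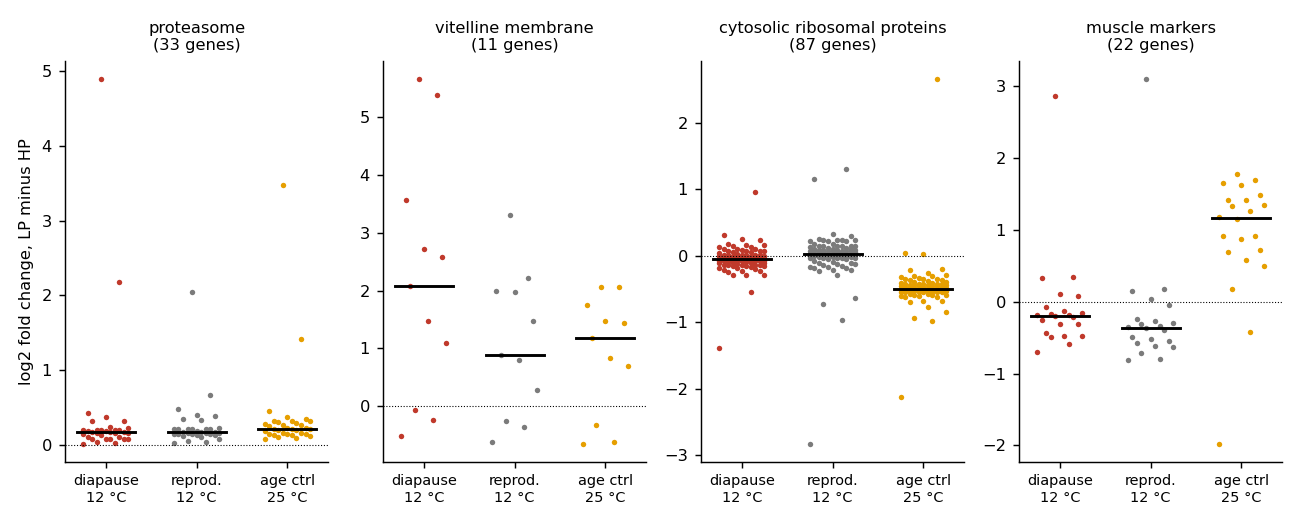
Log2 fold change LP minus HP of each tested member of 4 gene lists (1 panel each, vertical scales differ) in diapause, reproductive and age-control ovaries, 1 point per gene, with a bar at the median. Proteasome medians are 0.17, 0.17 and 0.21, while ribosomal protein genes drop to −0.50 and muscle markers rise to 1.17 in age controls, from −0.05 and −0.20 in diapause.

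Single genes showed the difference between states at larger size. PPO2, a prophenoloxidase gene of haemocyte crystal cells, had 3.65, 1.99 and 3.48 CPM in HP and 0.156, 0.0545 and 0.428 in LP diapause ovaries, and 10.8, 13 and 8.91 CPM in HP and 0 in all LP age controls. Dro had 2.76, 1.19 and 2.01 CPM in HP and 4.19, 5.32 and 6.16 in LP age controls, against lower LP levels in diapause (log2 fold change −4.19, SE 0.46, adjusted p = 2.9e-06 for the difference between states). Arc1, a capsid-like protein of the Arc family, was close in diapause, at 91.2, 92.4 and 77.2 CPM in HP and 71.6, 66.4 and 69.5 in LP (log2 fold change −0.33, SE 0.11, adjusted p = 0.033; the call was lost without HP replicate 1, HP replicate 2, LP replicate 2 or LP replicate 3 (−0.34 to −0.29, adjusted p = 0.065 to 0.1)), and had 12, 12.4 and 11.7 and 124, 154 and 99.2 CPM in age controls. The testis-type aminopeptidase gene S-Lap1 and tbc were under 1 CPM in all diapause libraries and higher in LP age controls, where S-Lap1 had 1.75, 14.9 and 0.455 CPM against 0 in HP. Kr-h1 went from 4.92 ± 0.934 to 3.12 ± 1.0 CPM in age controls (−0.66, adjusted p = 0.26), and its difference between states was 2.08 (SE 0.64, adjusted p = 0.035). The gene eya was at −1.26 in age controls (difference between states 0.89, adjusted p = 0.0014), and Clk at −0.57 (difference 1.29, adjusted p = 0.0023).

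Some of the largest line differences of diapause were also large in age controls, and others were smaller there. SkpC had 0.0943 ± 0.0817 CPM in HP and 84.3 ± 9.49 in LP, GstZ1 0.0467 ± 0.000869 and 15.9 ± 0.341, and Amt 1.2 ± 0.347 and 0.0612 ± 0.070. The gene pst had 88.9 ± 3.91 and 15.4 ± 0.915 CPM, a smaller difference than in diapause (difference between states −1.62, SE 0.11). ItgaPS4 and mesh had smaller differences in age controls, at 2.87 and 3.36 (differences between states 2.29 and 1.92). Tsf1 and His2B:CG33868 were less strongly lower in LP there (differences between states −2.35 and −2.58). Dscam4 was more strongly lower in LP there (difference between states 3.36). Of the 2947 genes called in diapause, 1367 (46.4%) were called in the same direction in both other states and 422 in neither. Over all 9037 tested genes, 1755 (19.4%) were called in both other states in the direction of their diapause value, and 3997 in neither.

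Of 174 genes named by the rule, 162 were called in diapause, and 139 of these were called in each of the 6 fits that left out 1 diapause library. The other 23 lost their call in at least 1 of these fits, most of them with log2 fold changes under 1, and none changed direction.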

How the data were processed

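Poly-A RNA of ovaries was sequenced with a directional kit, per the labels' protocols, and the authors deposited 1 table of raw counts per gene for 18 libraries. Per the submitters' processing notes, reads were handled with Trimmomatic, STAR and featureCounts, and DESeq2 was used; versions, genome build and the treatment of strand and of reads with several matches are stated in no source used here. Gene coordinates are those of the deposited table, and names came from the Ensembl gene annotation of this species (17556 of 17611 IDs matched, 17540 with the same coordinates). Counts of overlapping genes and of near-identical copies are therefore uncertain. Neither line is the reference strain by its label, and mismatches to the reference were not checked.

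From the deposited counts, a model with a separate mean for each of the 6 groups was estimated in edgeR 4.0.16 under R 4.3.3 (with limma 3.58.1), using TMM scaling, filterByExpr and robust quasi-likelihood tests on 12 residual degrees of freedom. Genes were called at a Benjamini-Hochberg adjusted p under 0.05 over 9037 genes. Fold changes against 0 counts are lower bounds from a floor of 3 counts over the group; ratios from 1 to 3 counts have exact 95% intervals, and both cover counting error only. Shares of counts were compared by exact permutation tests over libraries (SciPy 1.17.1), where 3 against 3 cannot go below p = 0.10. Tables were handled with Python 3.11.15 and pandas 2.3.3 and drawn with matplotlib 3.10.9.

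Genes were named by rule: the 10 largest rises and 10 largest falls at 5 CPM or more with no overlap between lines and a symbol; up to 3 called members of each list with the smallest p; a set of diapause, germline and histone methylation genes; the 5 largest differences between states; genes nearly absent in one line; the 5 longest runs of neighbours; and the 5 called genes over 2-fold with the highest CPM. Members, rules and the 39 lists (522 entries, 7 not found) were chosen with earlier results of these data known. Alternatives were other scalings, filters and tools (DESeq2 1.42.0), a 1.5-fold null hypothesis, a replicate block, the 6 diapause libraries alone and each diapause library left out. Replicate libraries differed by more than sampling noise.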

Additional observations from a re-analysis of the deposited data

Results flagged for a closer look

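Among the named genes, 55 had a line difference in diapause that differed from the line difference in age controls by the test of that difference itself (edgeR, adjusted p under 0.05); all were looked up here because of that test. Values in brackets are the diapause log2 line difference (LP minus HP) minus the age-control one. The largest positive values were those of PPO2 (6.85), TpnC41C (4.85), CG43064 (4.69), tut (3.40), Dscam4 (3.36), CG3502 (2.44), ItgaPS4 (2.29), CG12896 (2.18), Kr-h1 (2.08), mesh (1.92), dao (1.70), GstD2 (1.65) and Prx6b (1.49). Positive values of middle size belonged to Cyp6a23 (1.44), Clk (1.29), GstD3 (1.03), Hr4 (1.02), GNBP1 (1.01), Socs36E (0.98), eya (0.89), Dad (0.77), Buffy (0.75), RpL5 (0.68), Kdm3 (0.65), Ugt301D1 (0.64) and CG13992 (0.63). Smaller positive values belonged to BoYb (0.58), bam (0.58), cwo (0.55), Set2 (0.43), RpL23A (0.43), ATPsynbeta (0.43), mRpS2 (0.41), vas (0.40), LpR1 (0.40), mt:Cyt-b (0.34) and foxo (0.31). The fitted value of PPO2 depends on a group with 0 counts and on the prior count.

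The largest negative values were those of S-Lap1 (−10.69), Dro (−4.19), tbc (−4.06), Arc1 (−3.71), His2B:CG33868 (−2.58), Tsf1 (−2.35), CG11825 (−2.02), Cyp12e1 (−1.75) and pst (−1.62). Smaller negative values belonged to CG14692 (−1.42), Mf (−0.97), HP4 (−0.70), png (−0.59), Hex-A (−0.41), SMC2 (−0.41), HP1b (−0.40), Zasp52 (−0.37) and shu (−0.25). The fitted value of S-Lap1 depends on a group with 0 counts, and its level in LP age controls came mostly from replicate 2. That library had 12129 genes with a count, the most in the series. State, temperature and age differ together between the 2 kinds of ovaries, so their parts in these values cannot be told apart.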

How the results depend on the processing

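The number of genes called between the lines in diapause (2947) was 2950 with DESeq2's size factors in edgeR, 2890 with library totals, 2613 with no filter on low counts, 2899 with a minimum of 1 CPM in 3 libraries, 2956 without the robust option, 3076 with DESeq2 and 3013 in the 6 diapause libraries alone, and 2300 to 2633 with 1 library left out. Against a 1.5-fold change it was 554, with 327 higher and 227 lower. Same-numbered libraries of the lines did not deviate together (correlations of −0.057, −0.029 and −0.027); a replicate block gave 2951 calls in all libraries, 3058 in the 6 diapause libraries alone, 1687 for the difference from age controls and 0 for the difference from reproductive ovaries. That last count, 0, was 6 with DESeq2 (1 higher, 5 lower) and 0 to 1 with 1 library left out, likewise 0 to 1 higher and 0 to 1 lower. The difference from age controls was called in 1294 to 1568 genes with 1 library left out. Genes nearly absent in one line were 30 with a limit of 0.5 CPM, 34 with at least 2 CPM in the other line and 14 to 17 with 1 library left out. Runs of neighbouring called genes were 103 with no fold minimum, 5 against a 1.5-fold change, 8 in the 6 diapause libraries alone with or without the block, and 8 to 15 with 1 library left out, the lowest without HP replicate 1 or HP replicate 3. The 1.5-fold rule is stricter, and the limits of 0.5 and 2 CPM and the lack of a fold minimum are looser, by construction; the cause of the other changes was not tested. Of 162 named called genes, 91 were not called against a 1.5-fold change, 5 with no filter, 0 of 161 with DESeq2, and 4 to 18 with 1 library left out, most without LP replicate 2; none changed direction. Depth limits the genes under about 1 CPM, where few counts stand behind a fold change.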

Other observations

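By annotated class, 33.1% of protein-coding genes were called between the lines in diapause, 24.3% of non-coding RNA genes (74 of 305), 9 of 95 snoRNA genes and 15 of 40 pseudogenes. The 2 tested genes of the Y chromosome, which female flies lack, were counted at low levels in HP: FDY had 0.838, 8.53 and 10.1 CPM in HP and 1.3, 0.763 and 0.917 in LP (−2.69, SE 0.58), with HP replicate 1 among the LP values. CR41509 had 2.51, 2.43 and 2.11 CPM in HP and 0 counts in LP, at least 42.1-fold lower in LP.

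CG44247 and CG16995, chosen after their values were seen, are uncharacterised by name and differed strongly. CG44247 (2R) had 75.3, 57.1 and 61.9 CPM in HP and 1.35, 0.981 and 0.917 in LP (−5.88, SE 0.21). CG16995 (2L) had 0.0598, 0.147 and 0.399 CPM in HP and 19.2, 12.9 and 14.2 in LP (6.17, SE 0.37). Of 121 pairs of adjacent genes that were both called over 2-fold, 93 (76.9%) differed in the same direction.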
